A study of Mus musculus with 6 samples.

Results

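Tenascin C, 4 thrombospondins, cartilage oligomeric matrix protein, osteopontin, periostin, SPARC and fibronectin were followed in bone marrow stromal cells (BMSC) recovered from stroke-injured mouse brain. The genes are Tnc, Thbs1, Thbs2, Thbs3, Thbs4, Comp, Spp1, Postn, Sparc and Fn1. A gene was read from the probe sets annotated to its symbol alone, and where it had several, the brightest one (by mean log2 signal over the 6 arrays) gave its main value. This rule found 16 probe sets for 9 of the 10 genes, among 18193 genes in all. Spp1, the gene of osteopontin, had no probe set annotated to its symbol alone and is not analysed here. The paper reports its transcript as strongly increased in the recovered cells.

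Each group had 3 Affymetrix mouse genome arrays, and values below follow the order of the replicate numbers. Naïve Large T BMSC (replicates 1, 3 and 5) were adherent marrow cells of H-2Kb-tsA58 mice, a CBA/ca × C57Bl/10 hybrid. iLarge T BMSC (replicates 2, 4 and 6) are described as Large T BMSC that had been injected into a vein of male C57Bl/6J mice aged 6 to 8 weeks, 24 h after a 60 min occlusion of the middle cerebral artery. Collagenase digestion of the infarcted hemisphere, 14 days after the injection, freed them for culture. Both groups carried the temperature-sensitive SV40 large T antigen under the H-2Kb promoter, were grown at 33°C and were passaged 3 times. Each array pooled RNA from 3 hemispheres or 3 naïve cell preparations. No group on the arrays was recovered from uninjured brain or treated with collagenase alone, so the effects of the stroke, of the stay in the brain, and of digestion and regrowth cannot be told apart. Whether the recovered cells descended from the injected ones was not tested here either, so a difference between the groups may be one between different cells, and "rose in iLarge T BMSC" below means only a higher signal on the arrays labelled so. The arrays of a group came from independent experiments, so the p-values below measure the spread between such pools.

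Matricellular proteins are secreted into the extracellular matrix, where they act on cells through integrins and other receptors and bind growth factors and proteases, rather than holding the matrix together as collagens do. Most are scarce in resting adult tissue and abundant in development, in healing wounds and in scars. Fibronectin differs from them in being a structural glycoprotein that cells assemble into fibrils through integrins, and several matricellular proteins bind it. After injury to the brain, tenascin C, thrombospondins, osteopontin, SPARC and fibronectin are known from astrocytes, macrophages, vessels and scar-forming fibroblasts, and thrombospondins from astrocytes promote the formation of synapses.

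Before the results, 2 arrays have to be set apart. Log2 signals of naïve replicates 3 and 5 correlated at 0.892 over all probe sets (which are not independent of each other). Naïve replicate 1 correlated with them at 0.829 and 0.831. For iLarge T replicates the correlation was 0.849 (2 with 4), 0.845 (2 with 6) and 0.863 (4 with 6). Naïve replicate 1 was thus only a little below the iLarge T pairs, and naïve replicates 3 and 5 were the closest pair. By this measure iLarge T replicate 6 did not stand apart from its group. The Y-linked gene Eif2s3y had signals of 7564, 3.44 and 15.2 on the naïve arrays against 16802, 12022 and 9598 on the iLarge T arrays, and the brightest probe sets of Kdm5d and Uty followed this pattern. Naïve replicate 1 thus carried Y-linked signal that the other naïve arrays lacked. The other sex gene, Xist, read 462.6, 248.0 and 239.8 on the naïve arrays with its brightest probe set. On the iLarge T arrays it read 615.0, 378.4 and 209.6 (limma adjusted p = 0.898). Low Y-linked signal on naïve replicates 3 and 5 thus did not go with higher Xist, and the sex of the cells is not settled by these values. Nnt, a mitochondrial enzyme gene that is partly deleted in C57Bl/6J mice, had signals of 14093 to 15756 on naïve and 4180 to 6423 on iLarge T arrays (log2 fold change -1.45, limma adjusted p = 0.0109). Ptprc, the pan-leukocyte gene, reached 4440 on iLarge T replicate 6 and at most 205.7 on the other 5 arrays. The main value of each gene is therefore given with and without naïve replicate 1, and for the genes that rose without iLarge T replicate 6 as well. What these differences between arrays contributed to the results was not tested.

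Tnc, Thbs2 and Postn rose in iLarge T BMSC, by 10.05-fold to 15.4-fold, and none of the 9 genes fell. A gene was called at 2-fold or more in either direction and a limma adjusted p under 0.05, with p-values adjusted by Benjamini-Hochberg over all 45037 probe sets that are not controls. By this rule 3 genes were called higher, 0 were called lower and 6 were not called. Of all genes 3.54% were called higher and 3.26% lower. At an unadjusted p under 0.05, limma had 5 of the 9 genes higher and 0 lower, against 11.6% and 10.5% of all genes. The methods' t-test at that threshold had 3 higher and 0 lower on log2 signals (9.7% and 9.52% of all genes) and the same counts on linear signals (8.86% and 8.75%). Of the 16 probe sets, 5 were called higher and 11 were not called, against 2.47% of all probe sets called higher. In 4 genes (Tnc, Thbs2, Postn and Thbs3) every iLarge T array lay above every naïve array, as it did in 14.5% of all genes. The median log2 fold change was 0.97 over the 9 genes and 0.06 over all genes, and 8 of the 9 values were positive. In arrays of whole cultures, more cells that express a gene and more RNA per cell cannot be told apart.

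**Figure D1:**
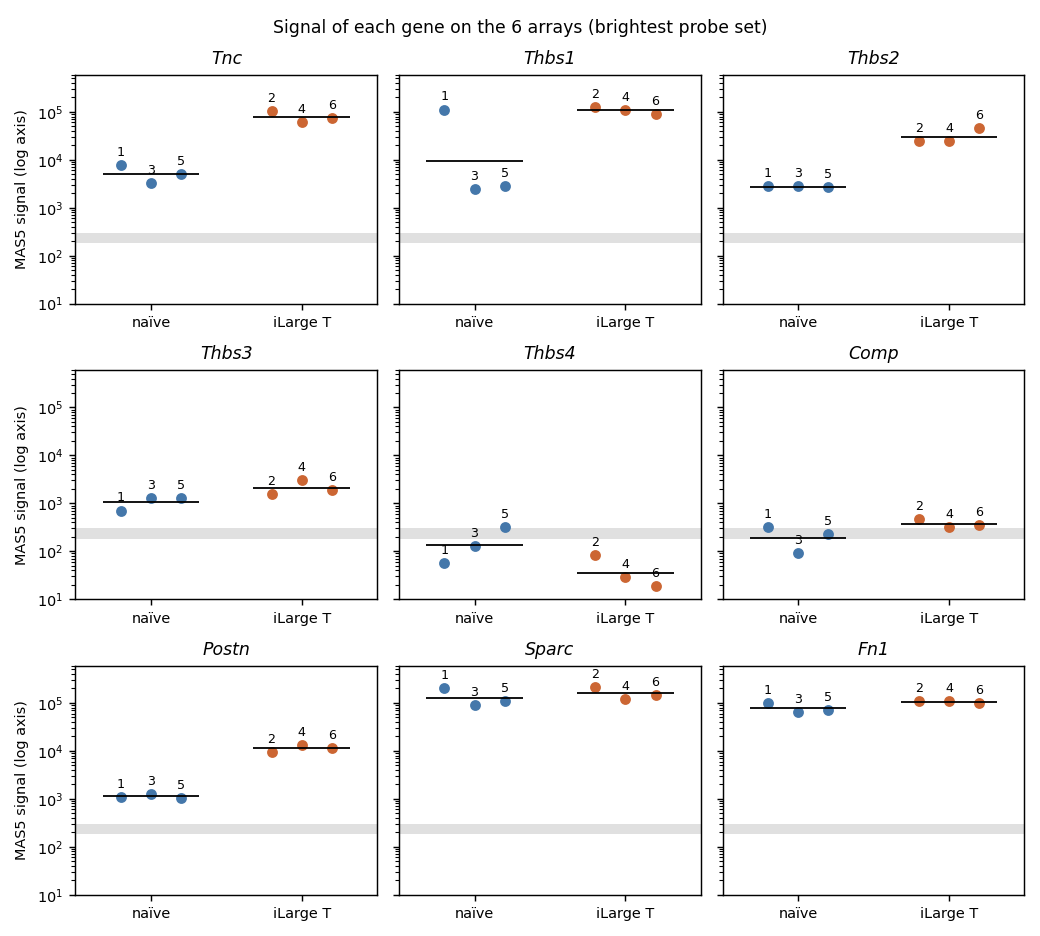
MAS5 signal (log axis) of the brightest probe set of each gene on the naïve (blue) and iLarge T (orange) arrays, with replicate numbers beside the points, the geometric mean of each group as a line and the range of the 40th percentile of the 6 arrays (182.5 to 299.6) in grey. Tnc, Thbs2 and Postn show 2 separate groups of points, Thbs1 shows naïve replicate 1 at the level of the iLarge T arrays, and 5 of the 6 Thbs4 points lie below the grey band.

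The grey band in the plot of signals by array marks the limit used here for signals near background, the 40th percentile of each array, since the deposited table holds no detection calls. Tnc, Thbs2, Postn, Thbs3, Sparc and Fn1 were above it on all 6 arrays with their main probe set, as was Thbs1.

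The 3 genes that rose together are shown by the 250 bases upstream of their annotated starts, so that their proximal promoters can be set side by side. The sequences are RefSeq's (GRCm38.p6), written 5′ to 3′ on the strand of the gene, and the windows are chr4:64047016-64047265 (minus strand) for Tnc, chr17:14694263-14694512 (minus strand) for Thbs2 and chr3:54359017-54359266 (plus strand) for Postn. Capitals mark matches, on either strand, to the letters of a TATA box (spelled TATAAA), of an AP-1 site (spelled TGANTCA), of a TEAD site (spelled CATTCC) or of a SMAD box (spelled CAGACA).
Tnc: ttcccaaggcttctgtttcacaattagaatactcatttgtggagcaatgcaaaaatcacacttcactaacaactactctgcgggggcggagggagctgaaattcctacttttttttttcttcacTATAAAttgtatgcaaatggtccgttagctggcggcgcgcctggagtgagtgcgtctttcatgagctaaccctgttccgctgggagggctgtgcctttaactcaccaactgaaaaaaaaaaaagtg
Thbs2: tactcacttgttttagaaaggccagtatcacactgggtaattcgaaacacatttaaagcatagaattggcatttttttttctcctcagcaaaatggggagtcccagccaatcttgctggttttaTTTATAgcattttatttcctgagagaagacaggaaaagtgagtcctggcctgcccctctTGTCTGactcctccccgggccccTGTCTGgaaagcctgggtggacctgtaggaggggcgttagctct
Postn: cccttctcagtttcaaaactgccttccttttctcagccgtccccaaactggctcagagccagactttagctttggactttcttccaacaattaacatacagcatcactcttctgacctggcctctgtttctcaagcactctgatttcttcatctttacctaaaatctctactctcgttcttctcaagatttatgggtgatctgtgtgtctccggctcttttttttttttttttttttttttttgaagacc

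The letters TATAAA stood in the Tnc window at -126 to -121 from the annotated start, and on the opposite strand in the Thbs2 window at the same distance. The share of all 27025 windows of this length that held them was 12.98%. The Thbs2 window also held CAGACA on the opposite strand at -67 to -62 and at -44 to -39, a motif found in 17.08% of all windows. No match to TGANTCA (6.853% of all windows) or CATTCC (12.64%) lay in the 3 windows, and the Postn window held none of the 4 motifs. GGGCGG (GC box, 32.96% of all windows) and CANNTG (E-box, 66.05%) were searched as well and are not in capitals. The Tnc window held 1 GC box and 3 E-boxes, the Thbs2 window 1 E-box, and the Postn window neither. No motif of the 6 was thus present in all 3 windows. These are matches of letters and do not show that a factor binds.

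Tenascin C is a large hexameric glycoprotein of wounds, tumour stroma and neural stem cell niches that loosens the attachment of cells to fibronectin. The signals of Tnc were 7793, 3357 and 5013 on the naïve arrays and 102893, 61761 and 74839 on the iLarge T arrays. The lowest iLarge T array was thus far above the highest naïve array. The means were 5388 ± 2242 and 79831 ± 21016 (SD, n = 3 arrays each), and the log2 fold change was 3.94 with a standard error of 0.34 (95% interval 3.19 to 4.69, limma adjusted p = 0.000581). A second Tnc probe set read 14.5, 100.4 and 54.7 on the naïve arrays, all near background, and 900.8, 563.6 and 140.8 on the iLarge T arrays, the last near background too. It gave at least 1.90-fold higher signal in iLarge T BMSC, counted against the 40th percentile of the naïve arrays, and was not called (limma adjusted p = 0.154).

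The thrombospondins fall into the trimeric thrombospondins 1 and 2, which bind CD36 and CD47, restrain the growth of vessels and, in the case of thrombospondin 1, activate latent TGF-beta, and the pentameric thrombospondins 3, 4 and COMP, which lack these antiangiogenic repeats. Of the trimeric pair, Thbs2 rose in all 3 of its probe sets. Its main probe set read 2778, 2833 and 2659 on the naïve arrays and 24179, 24408 and 45214 on the iLarge T arrays. The naïve arrays lay within 1.07-fold of each other, naïve replicate 1 included, and the brightest iLarge T array was replicate 6. The means were 2757 ± 88.8 and 31267 ± 12079 (SD, n = 3 arrays each), a log2 fold change of 3.44 with a standard error of 0.29 (95% interval 2.79 to 4.09, limma adjusted p = 0.000577). The other Thbs2 probe sets gave log2 fold changes of 3.45 and 3.73 (limma adjusted p = 0.00108 and 0.00116).

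Thbs1 was not called, and 1 naïve array carried as much of it as the iLarge T arrays. Its signals were 111836, 2479 and 2887 on the naïve arrays and 128351, 108132 and 91459 on the iLarge T arrays. Naïve replicate 1 was 41.8-fold above the geometric mean of the other naïve arrays and differed from the mean of the iLarge T arrays by 0.05 on the log2 scale. With all 6 arrays the log2 fold change was 3.54 with a standard error of 1.17 (95% interval 0.93 to 6.16, limma adjusted p = 0.134). Without naïve replicate 1 it was 5.34 (limma adjusted p = 4.49e-06), and Thbs1 joined Tnc, Thbs2 and Postn to make 4 called genes, against 7.13% of all genes called higher without that array. A second Thbs1 probe set had the same pattern, with 90362, 1746 and 2336 on the naïve arrays and 105914, 110027 and 79735 on the iLarge T arrays (log2 fold change 3.77, limma adjusted p = 0.119).

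**Figure D2:**
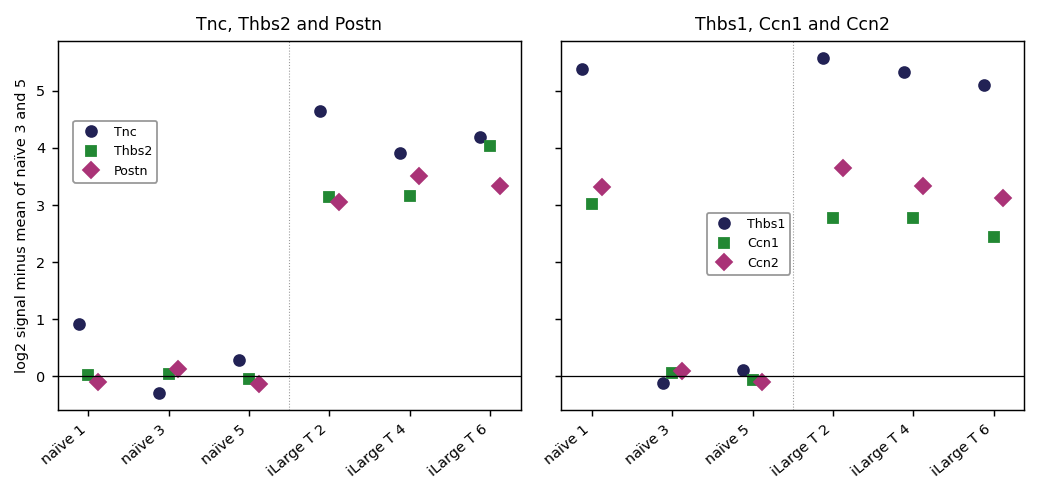
Log2 signal on each array minus the mean of naïve replicates 3 and 5, for Tnc, Thbs2 and Postn (left) and for Thbs1, Ccn1 and Ccn2 (right), with naïve and iLarge T arrays parted by the dotted line. Naïve replicate 1 lies with the other naïve arrays on the left (0.93 for Tnc, 0.02 for Thbs2, -0.10 for Postn) and with the iLarge T arrays on the right (5.39 for Thbs1).

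Naïve replicate 1 did not take this place for every gene, as the plot of signals relative to naïve replicates 3 and 5 shows. For Thbs2 and Postn it lay within 0.10 of them on the log2 scale. Of the 2512 genes called in either direction without naïve replicate 1, that array lay nearer to the iLarge T mean than to the other naïve arrays in 1158 (46.1%). Ccn1 and Ccn2, which encode the matricellular proteins CYR61 and CTGF, had the pattern of Thbs1 and are named here after their values were seen. Ccn1 read 114440, 14651 and 13516 on the naïve arrays and 96588, 95727 and 76740 on the iLarge T arrays. Ccn2 read 163722, 17515 and 15345 on the naïve arrays and 206548, 165804 and 143773 on the iLarge T arrays. Neither was called with all 6 arrays (limma adjusted p = 0.238 and 0.133), and both were without naïve replicate 1 (limma adjusted p = 8.84e-05 and 3.86e-05).

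None of the pentameric thrombospondins was called. Thbs3 read 707.7, 1320 and 1319 on the naïve arrays and 1586, 3130 and 1870 on the iLarge T arrays, with no overlap of the groups. Its log2 fold change was 0.97 (standard error 0.42, 95% interval 0.04 to 1.90, limma adjusted p = 0.259), and naïve replicate 1 was here the lowest array. Without that array the value was 0.67. Comp, known from cartilage and tendon, read 326.6, 90.1 and 232.4 on the naïve arrays and 461.9, 319.4 and 347.4 on the iLarge T arrays. The groups overlapped, and the log2 fold change was 0.97 with a 95% interval of -0.74 to 2.67 (limma adjusted p = 0.592), or 1.36 without naïve replicate 1 (limma adjusted p = 0.387). Thbs4, the thrombospondin of tendon and muscle that is also made by reactive astrocytes, had no iLarge T array and only 1 naïve array above the near-background limit. No fold is given for it (57.6, 129.8 and 314.4 against 82.8, 28.6 and 18.9, limma adjusted p = 0.455, or 0.293 without naïve replicate 1).

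Postn encodes periostin, a protein of periosteum, fibroblasts and scars that links collagen, fibronectin and tenascin C. It had the smallest standard error of the 3 genes that rose, and read 1083, 1269 and 1059 on the naïve arrays and 9607, 13136 and 11694 on the iLarge T arrays, so that the groups lay far apart. The means were 1137 ± 115 and 11479 ± 1774 (SD, n = 3 arrays each), and the log2 fold change was 3.33 with a standard error of 0.27 (95% interval 2.73 to 3.93, limma adjusted p = 0.000478). Postn had 1 probe set, so there was no second reading on the same arrays.

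Sparc and Fn1 had signals far above the near-background limit on every array of both groups with their main probe sets, and neither was called. SPARC, also called osteonectin, binds collagen and is made in quantity by bone-forming and stromal cells. Sparc read 208502, 90477 and 111365 on the naïve arrays and 217877, 119900 and 148799 on the iLarge T arrays, and the groups overlapped. Its log2 fold change was 0.30 (95% interval -0.50 to 1.10, limma adjusted p = 0.753), an interval that reaches past 2-fold at its upper end only. Without naïve replicate 1 the value was 0.65 (limma adjusted p = 0.224). A second Sparc probe set gave 0.59 (95% interval -0.03 to 1.21, limma adjusted p = 0.308). The third pointed the other way, with signals of 609.9, 319.5 and 368.9 on the naïve and 130.2, 179.5 and 107.1 on the iLarge T arrays, the last 3 near background. It was at least 1.69-fold lower in iLarge T BMSC and was not called (limma adjusted p = 0.294), so the probe sets of Sparc did not give one direction.

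Fn1 read 100211, 64835 and 71800 on the naïve arrays and 110485, 110775 and 97880 on the iLarge T arrays. Naïve replicate 1 overlapped the iLarge T arrays, and the others lay below all of them. The log2 fold change was 0.45 (95% interval -0.11 to 1.01, limma adjusted p = 0.401), and 0.64 without naïve replicate 1 (limma adjusted p = 0.107). The second Fn1 probe set read 9399, 712.6 and 1255 on the naïve arrays and 5064, 3989 and 2307 on the iLarge T arrays, so that naïve replicate 1 was the highest of all 6 (log2 fold change 0.82, limma adjusted p = 0.680).

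**Figure D3:**
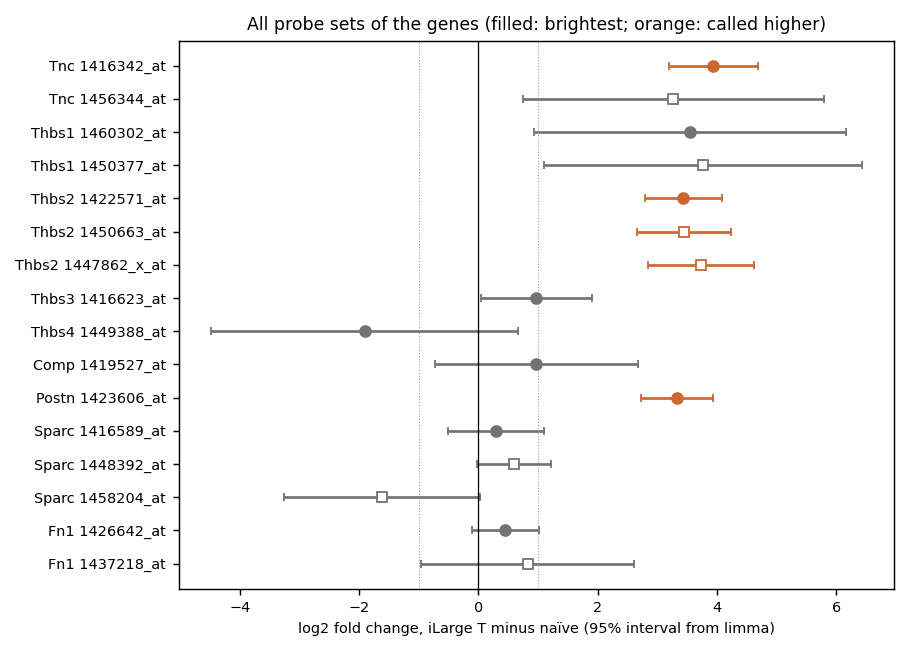
Log2 fold change (iLarge T minus naïve) of all 16 probe sets with the 95% interval from limma, filled circles for the brightest probe set of a gene, open squares for its others, orange where called higher and grey where not, and dotted lines at 2-fold. The 5 orange values lie between 3.33 and 3.94, the Thbs1 intervals are wide and the 3 Sparc values lie on both sides of 0.

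The plot of all probe sets shows that the size of the change alone did not decide the calls, since Thbs1 had values of 3.54 and 3.77 with much wider intervals than Thbs2. Whether 2 genes differed in their fold change was tested for 3 pairs, with an exact permutation test (2-sided) of the difference of their log2 signals on each array. With 3 arrays against 3 this test cannot give a p under 0.1. The log2 fold change of Tnc exceeded that of Fn1 by 3.49 (exact permutation p = 0.1, 0.15 after adjustment over the 3 pairs), and the per-array differences of the groups did not overlap. The log2 fold change of Postn exceeded that of Sparc by 3.03 (exact permutation p = 0.1, adjusted 0.15), again without overlap. Thbs2 and Thbs1 differed by -0.11 (exact permutation p = 1, adjusted 1). This pair had the widest spread, since the naïve replicates gave -5.33, 0.19 and -0.12, so their fold changes are not shown to be alike.

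**Figure D4:**
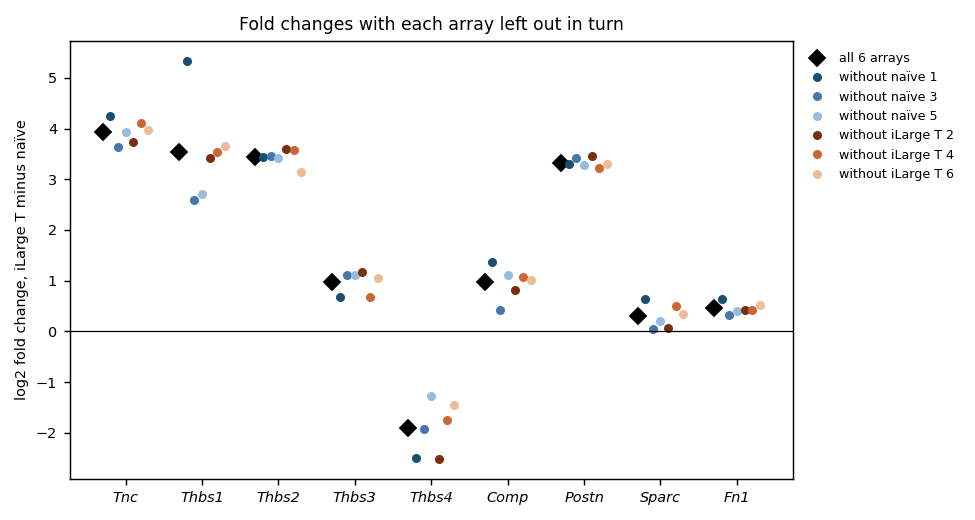
Log2 fold change (iLarge T minus naïve) of the brightest probe set of each gene with all 6 arrays (black diamonds) and with each array left out in turn (circles, blue for naïve and brown to orange for iLarge T). Tnc, Thbs2 and Postn stay between 3.14 and 4.25, while Thbs1 runs from 2.59 to 5.34.

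With any 1 array left out, Tnc, Thbs2 and Postn were called each time, as the plot of values with each array left out shows for their sizes. The highest limma adjusted p of these 6 fits was 0.00638 for Tnc, 0.00563 for Thbs2 and 0.00563 for Postn. Without iLarge T replicate 6 the log2 fold changes were 3.97, 3.14 and 3.31. The call did depend on the test: with the methods' t-test on log2 signals only Postn was called (Benjamini-Hochberg adjusted p = 0.0441), and on linear signals none of the 9 genes was.

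Of 34 other matricellular and related matrix proteins measured, 5 were called higher and 0 lower, with a median log2 fold change of 1.36. Without naïve replicate 1 the count was 10 (against 7.13% of all genes higher and 6.67% lower in that fit), and with any other array left out it was 3 or 4. Mgp, which encodes the calcification inhibitor matrix Gla protein, rose from 9882 to 18556 on the naïve arrays to 95410 to 117348 on the iLarge T arrays (log2 fold change 2.99, limma adjusted p = 0.000713). Tgfbi, a TGF-beta-induced protein related to periostin, rose from 415.8 to 1340 on the naïve arrays to 7044 to 34872 on the iLarge T arrays (4.35, limma adjusted p = 0.00441). Smoc2, a SPARC-related calcium-binding protein, read 129.7 to 343.0 on the naïve arrays, near background on replicates 3 and 5. The iLarge T arrays read 1603 to 7797 (4.33, limma adjusted p = 0.00576). These 3 kept their call with any 1 array left out. Sparcl1, the closest relative of Sparc, was near background on the naïve arrays and at least 4.82-fold higher in iLarge T BMSC by the group means (limma adjusted p = 0.0267). It read 176.4, 1411 and 4699 on the iLarge T arrays, so replicate 2 was near background as well. Its call was kept only without naïve replicate 1 or iLarge T replicate 2 among the 6 fits. Ccn4, the fifth and outside the rule for named genes, rose by 1.91 (limma adjusted p = 0.0192), a call kept only without naïve replicate 1 among the 6 fits. The tenascins Tnn and Tnr were near background on all 6 arrays.

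Among the receptors of these proteins, many of them integrins, 6 of 27 measured genes were called higher and 1 lower, with a median log2 fold change of 1.11. Itga8 encodes the alpha 8 integrin subunit, which pairs with beta 1 and binds tenascin C, fibronectin and osteopontin. It read 352.4, 20.6 and 172.8 on the naïve arrays, the last 2 near background. The iLarge T arrays read 14623, 6111 and 19807 (log2 fold change 6.81, limma adjusted p = 0.00357), a size that rests in part on dim signals. Itga5, the fibronectin receptor subunit, read 2345, 3980 and 5338 and then 14849, 29861 and 28879 (2.67, limma adjusted p = 0.00428). Both kept their call with any 1 array left out, and both showed separate groups, but the size for Itga8 ran from 5.62 to 7.66 over these fits. Cacna2d1, a calcium channel subunit known as the thrombospondin receptor of synapse formation, read 526.5, 7.79 and 160.6 on the naïve arrays, the last 2 near background, and 5703, 6063 and 4505 on the iLarge T arrays. It rose by 5.95 (limma adjusted p = 0.0245), from 4.21 without naïve replicate 3 to 7.25 without naïve replicate 1, and its call was lost without any 1 of the iLarge T arrays. Plaur, the urokinase receptor, which also binds vitronectin, rose by 2.18 (limma adjusted p = 0.0153), a call that needed naïve replicates 3 and 5 and iLarge T replicate 2. Beyond the rule for named genes, Cd44 rose by 2.04 (limma adjusted p = 0.0305) and Itgb3 by 1.74 (0.0338), while Cd47, a thrombospondin 1 receptor, fell from 19296 to 36480 on the naïve arrays to 10078 to 14608 on the iLarge T arrays (0.0466). Leaving out naïve replicate 1 gave 9 receptors higher and 3 lower, against 7.13% of all genes higher and 6.67% lower in that fit. Leaving out any other array gave 3 or 4 higher and 0 lower.

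Of 27 genes of matrix assembly, crosslinking and cleavage, 1 rose and 0 fell, a share close to the 3.54% of all genes called higher, with a median log2 fold change of 0.80. The one that rose was Ltbp2, which encodes a protein of the elastic fibre. It read 330.2, 223.7 and 148.6 on the naïve arrays, the last near background, and 6135, 4385 and 2941 on the iLarge T arrays. It rose by 4.27 (limma adjusted p = 0.00134) and was called with any 1 array left out. Without naïve replicate 1, 9 rose and 2 fell, against 7.13% of all genes called higher and 6.67% lower in that fit. The 2 that fell thus lie near the share over all genes. Of 20 fibrillar collagens and small leucine-rich proteoglycans, 3 rose and 2 fell, with a median of 1.98. Col2a1, which encodes the main cartilage collagen, rose at least 18.1-fold (limma adjusted p = 0.00388), Fmod rose by 3.52 (0.0190) and Col5a1 by 1.69 (0.0183). Ogn fell by 2.22 (limma adjusted p = 0.0411) and Dcn, the gene of decorin, fell by 1.26 (0.0301) on the log2 scale. Of these 5, Col2a1 alone kept its call with any 1 array left out. Without naïve replicate 1 there were 8 higher and 2 lower, against the same 7.13% and 6.67% of all genes. Of 19 TGF-beta ligands and response genes, 2 rose and 0 fell, with a median of 0.37, and 4 rose and 1 fell without naïve replicate 1. They were Pmepa1 (2.06, limma adjusted p = 0.00534), called with any 1 array left out, and Smad7 (1.10, limma adjusted p = 0.0334), which lost its call when any array but naïve replicate 1 was left out. Both encode feedback inhibitors of the TGF-beta pathway, whose ligands Tgfb1, Tgfb2 and Tgfb3 were not called.

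The methods' t-test on log2 signals, with Benjamini-Hochberg adjustment over all probe sets, called 0 genes of these 5 lists in either direction. At an unadjusted p under 0.05 it had 9 of the other matricellular genes higher and 1 lower, 8 receptors higher and 1 lower, 3 assembly genes higher and 1 lower, 6 collagens and proteoglycans higher and 2 lower, and 5 TGF-beta genes higher and 1 lower. Limma at that threshold had 14 and 1, 10 and 2, 9 and 2, 11 and 2, and 6 and 0 for the same lists. At this threshold limma had 11.6% of all genes higher and 10.5% lower, and the methods' t-test 9.7% and 9.52%, so part of these counts lies near the share over all genes.

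Markers of several cell types moved between the groups beside Tnc, Thbs2 and Postn. Of 13 BMSC markers measured, 2 were called higher (Pdgfrb and Cd44) and 1 lower (Vcam1), and their summed signal was 202301 to 299405 on the naïve and 379166 to 484300 on the iLarge T arrays. Of 12 mesothelial markers, 7 were called lower and 0 higher, and the summed signal was 246269 to 306014 against 5232 to 7718. Upk3b, a defining mesothelial gene, read 20652, 76456 and 78960 on the naïve arrays and 46.5, 29.3 and 67.9 on the iLarge T arrays. The naïve arrays, labelled as bone marrow cells, thus carried strong signal of several mesothelial markers, but not of all. Krt8 read 630.4, 43.5 and 114.4 on the naïve arrays and Krt18 1273, 45.8 and 173.0, near background on replicates 3 and 5, and neither was called. Bnc1 and Gpm6a, both called lower, are among the genes the paper reports as strongly suppressed, so the list was not chosen apart from these data. Of 13 meningeal and perivascular fibroblast markers, 3 were called higher and 0 lower (38043 to 81646 against 125646 to 165729). Cyp1b1, which was not called, gave 17536 to 38409 and 32389 to 76101 of these sums. Foxd1, one of the 3 called, read at most 157.5 on the naïve and at least 12584 on the iLarge T arrays. Slc6a13 was near background on all 6 arrays and Slc22a6 on the iLarge T arrays, and neither was called.

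The pericyte and smooth muscle markers, of which 2 of 12 were called higher and 0 lower, had summed signals of 268694, 58907 and 56179 on the naïve arrays and of 205627 to 296222 on the iLarge T arrays. Naïve replicate 1 thus stood with the iLarge T arrays for this sum as it did for Thbs1. Most of the sum came from Acta2 (151611, 35112 and 31483 on the naïve arrays) and Tagln (100297, 22504 and 22118), neither of them called. The 2 called markers placed naïve replicate 1 with the naïve arrays instead. Rgs5 read 244.6 there against 1761 to 21367 on the iLarge T arrays, and Cspg4 376.5 against 3596 to 5792. Without naïve replicate 1, 8 of the 12 were called higher, against 7.13% of all genes in that fit. Of 12 endothelial markers, 3 were called higher and 1 lower, with summed signals of 9205 to 13110 on the naïve arrays, 11461 and 10988 on iLarge T replicates 2 and 4, and 70448 on replicate 6. Tek, which fell, made up most of the naïve sums (5703 to 9080 against 458.2 to 1300). Cdh5, a defining endothelial gene, read at most 209.9 on the naïve arrays and 2211, 2787 and 23797 on the iLarge T arrays, and Emcn at most 122.4 against 2857, 2917 and 15858. Flt1 was the third called higher. Pecam1, also a defining gene, was not called (limma adjusted p = 0.148). It read at most 62.2 on the naïve arrays and 62.5, 580.2 and 3560 on the iLarge T arrays, near background on replicate 2. Erg and Vwf were near background on iLarge T replicates 2 and 4 and were not called. Of 16 macrophage and microglial markers, 2 were called higher and 0 lower, with sums of 5155 to 12895 on the naïve arrays, 13796 and 19313 on iLarge T replicates 2 and 4, and 167195 on replicate 6. Cd68, which was not called, gave 543.7, 9873 and 8396 of the naïve sums and 317.5, 1329 and 16962 of the iLarge T sums. Lyz2, also not called, gave 78316 of the sum on iLarge T replicate 6. The 2 that were called were Csf1r, with 330.2 to 882.8 on the naïve arrays and 3716, 1892 and 5673 on the iLarge T arrays, and Tmem119, with 292.7 to 781.2 against 5248, 9720 and 8500. Among the 6 fits with 1 array left out, Csf1r kept its call only without naïve replicate 1 or iLarge T replicate 4, and Tmem119 kept it in all. Ptprc and Itgam were not called. Astrocyte markers (1 of 12 higher, 0 lower) summed to 65399 to 102009 on the naïve and 47531 to 59052 on the iLarge T arrays, sums to which Gja1, which was not called, gave 45728 to 95592 and 22814 to 39771. The astrocyte marker called was S100b, near background on the naïve arrays and at least 10.95-fold higher in iLarge T BMSC (limma adjusted p = 0.004), while Gfap and Aqp4 were not called. No marker of 10 measured for osteoblasts was called in either direction by limma (2354 to 3875 against 2884 to 3892), while 1 was higher and 1 lower at an unadjusted p under 0.05 by limma as by the methods' t-test on log2 signals. Of 14 chondrocyte and tendon markers 3 were called higher and 0 lower (1578 to 18966 against 13388 to 41876). They were Col2a1 and Fmod, described above, and Tnmd, the tendon gene tenomodulin, at least 7.59-fold higher (limma adjusted p = 0.0151). Acan was not called. With 1 array left out, Cd44, Flt1, the meningeal marker Foxc1 and the mesothelial marker Krt19 kept their calls only without naïve replicate 1. Aldh1a2 (meningeal) kept its call only without naïve replicate 1 or iLarge T replicate 4. Rgs5 lost its call without iLarge T replicate 2 or 6, and Tnmd without 2 or 4. The mesothelial Wt1 lost its call without naïve replicate 3, and Lrrn4 without 3 or 5. Other called markers except Csf1r and Fmod kept theirs. The part of these cell type markers in the results for the matrix genes was not tested.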

How the data were processed

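Gene expression was measured on 6 Affymetrix mouse genome arrays, 3 per group, grouped by the submitters' sample titles, which give the groups no shared replicate numbers. The deposited values are linear intensity signals, 1 per probe set, which the authors made with MAS5 in GeneChip Operating Software 1.2 and scaled to a trimmed mean of 2500 on each array. The number of arrays limits the precision.

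Log2 signals of 45037 probe sets (64 controls left out) were compared with limma 3.58.1 in R 4.3.3 (lmFit, eBayes with an intensity trend). Other steps used Python 3.11.15 with pandas 2.3.3, numpy 2.4.6, matplotlib 3.10.9 and scipy 1.17.1. Probe sets were named from the platform annotation: 34945 had 1 symbol, 932 several (no gene was named from these, 1 of them listing Thbs1) and 9160 none. By gene identifier 34741 were found in RefSeq, and 0 symbols changed. Where all arrays of a group lay under the 40th percentile, a fold is a lower bound against it.

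The genes and lists were chosen with earlier results of these data known. The rule for named genes took every gene followed here, the 4 called genes of largest change in each list, sex and strain genes, and defining markers. Of 10 genes, 7 had a promoter window among 27025. Alternatives were the methods' unpaired t-test on log2 and linear signals, limma without the trend, log2(signal + 16), quantile-normalized signals, a floor under low signals at the 40th percentile, testing only probe sets above it on at least 3 arrays, leaving out each array, other choices of probe set and no fold threshold. Leaving out both naïve replicate 1 and iLarge T replicate 6 was added after the data were seen.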

Additional observations from a re-analysis of the deposited data

How the results depend on the processing

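The count of genes called higher was 3 and became 1 with the methods' t-test on log2 signals and 0 on linear signals, where the Benjamini-Hochberg adjusted p was 0.0731 and 0.130 for Tnc, 0.0643 and 0.222 for Thbs2, and 0.0441 and 0.0749 for Postn. Under every other alternative run it was 3 or 4. Without the intensity trend the calls were close to the threshold, with a limma adjusted p of 0.0424 for Tnc and Thbs2 and 0.0369 for Postn. The fits with 1 array left out all used the trend. Leaving out 1 array gave 3 to 4, and leaving out both arrays that stand apart, chosen after seeing the data, gave 4. The fourth gene was Thbs1, called without naïve replicate 1, without both of those arrays, and with a floor at the 40th percentile (limma adjusted p = 0.0105, with the log2 fold change of 3.54 unchanged). No gene was called lower under any of them. Sparc changed direction, from 0.30 to -1.61 on the log2 scale with its most variable probe set and to -0.24 with the mean of its probe sets, and was not called in any. The first is a fitted value from a probe set whose iLarge T signals were all near background, and the second includes that probe set, so neither gives a size. Thbs4 could not be tested with the filter on dim probe sets, which removed it. The differences between pairs of genes kept their sign and their exact permutation p under the 4 alternatives run for them, and that of Postn and Sparc, 3.03, was larger with the same dim probe set. No paired analysis was possible because the groups share no replicate number.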
